A study of Mus musculus with 6 samples.

Results

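The transcripts of complement components and regulators were examined in osteoblast cultures, the primary bone-forming cells, after stimulation with C5a. The set comprised 38 genes listed by name, with no threshold on their values, and 36 of them had a probeset, a group of array probes summarised as a single value, that names no other gene. These 36 stand among 19938 genes with such a probeset. C3 and Cfd are not analysed here. Osteoblasts were grown out of long bones of 3 male wild-type mice of strain C57BL6/J, aged 8 to 12 weeks, and used at passage 2 to 3 (passage 2 in the methods). The cells of each mouse were differentiated under osteogenic conditions for 14 days and split on day 15. One culture of each mouse then received recombinant murine C5a in proliferation medium for 4 h, and its counterpart was kept in that medium without C5a for the same time (unstimulated). Each culture gave 1 array, hence 6 arrays in 2 groups of 3. The mice are numbered 2, 4 and 5, and the sources describe no sorting of the cells by surface markers.

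Complement is a cascade of plasma and membrane proteins that marks microbes and damaged cells. The classical pathway starts when C1q, a bundle of A, B and C chains, binds a target and activates the proteases C1r and C1s, which cleave C4 and C2. The lectin pathway begins with mannose-binding lectins, ficolins and collectins and the MASP proteases, and the alternative pathway is driven by factor B and stabilised by properdin. All converge on C3 and then C5, whose cleavage releases the anaphylatoxin C5a and starts assembly of the membrane attack complex, while soluble and membrane regulators restrain the cascade on host cells. The liver makes most plasma complement, macrophages and dendritic cells are the main producers of C1q, and bone cells are known to express complement genes and the C5a receptor.

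The values are deposited log2 expression values, on which a difference of 1 is a doubling, and they were compared within mice by limma with the mouse as a block. The comparison asks how C5a, itself a product of the cascade, changed the transcripts of the cascade. As a reference for low levels, 1035 probesets of odorant receptors, which bone cells are not known to use, had a 95th percentile of 5.33. All 9 measured osteoblast markers had means above it, with Col1a1, a chain of type I collagen, at 13.54, 13.76 and 13.32 in the C5a cultures of mice 2, 4 and 5, against 13.45, 13.79 and 13.41 in their unstimulated cultures. The 16 measured macrophage markers also had means above it, and all 16 were highest in mouse 4 and lowest in mouse 5. Their summed level, as the log2 of the summed linear values, was 10.7 to 14.5 over the C5a cultures and 10.5 to 14.9 over the unstimulated ones. Lysozyme, Lyz2, was at 12.71, 12.97 and 9.09 with C5a, against 13.08, 13.14 and 8.93 without. In bulk RNA, fewer cells of a type and less RNA per cell cannot be told apart.

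Many complement transcripts, among them the 3 chains of C1q, stood at different levels in the 3 mice. The levels of 14 of 36 members (38.9%) differed between the 3 mice at an adjusted p under 0.05 in limma's moderated F-test, against 3.71% of all genes. Among probesets with a mean above 5.33, 13 of 24 members (54.2%) differed between mice, against 5.24% of such genes. On the remaining 2 mice the count of members was 4 without mouse 2, 11 without mouse 4 and 1 without mouse 5. The share of all genes in these fits was not counted. Each mouse gave 1 culture per treatment, so animal, isolation and cell makeup cannot be told apart.

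With C5a, 1 of 36 members was higher at an unadjusted p under 0.05 (2.78%, against 8.26% of all genes) and 3 were lower (8.33%, against 11.9%). The 4 members were C1qbp, which was higher, and C1rl, Cd55 and Cfp, which were lower. Together they made up 11.1% of the members, against 20.2% of all genes, a share not above that of genes in general. Without mouse 5 the members lower at this threshold numbered 7, and without the pairing by mouse 0. A change of at least 1.5-fold at that threshold was found in 0 members upwards (2.22% of genes) and in 1 downwards, Cd55 (2.21% of genes), which became 0 without mouse 2 and 3 without mouse 5. After Benjamini-Hochberg adjustment across the 35556 probesets, limma called 0 members higher (0% of genes) and 0 lower (0.0201% of genes), and the smallest adjusted p of a member was 0.112. When only probesets naming 1 gene were fitted, 2 members were lower, C1rl and Cd55 (limma adjusted p = 0.0459 each). The share of all genes lower in these alternative fits was not counted, so their counts of members cannot be set against it. The median change of the members was -0.05, with 25 below and 11 above 0. That of all genes was -0.01, with 10391 below and 9547 above 0. In all 3 mice, 4 members were higher (Masp2, Mbl2, Hc and C1qbp, 11.1%, against 19% of genes) and 8 were lower (C1rl, C1s1, Fcna, Colec12, Cfp, C8g, Cfi and Cd55, 22.2%, against 22.9% of genes).

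**Figure D1:**
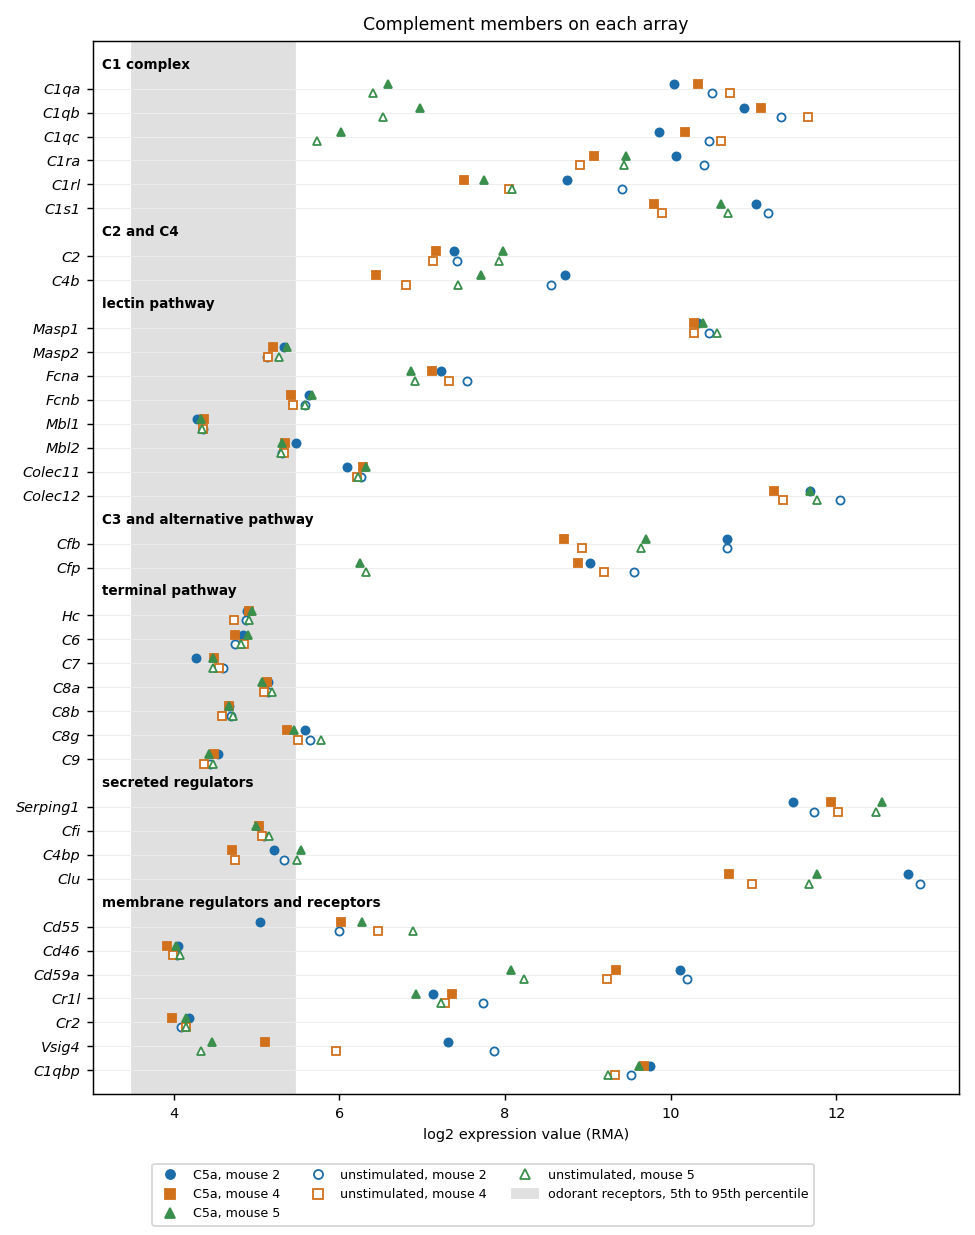
Log2 expression value (horizontal axis) of the 36 measured complement members on each of the 6 arrays, grouped by role. Filled symbols are C5a cultures, open symbols unstimulated cultures, each shape is 1 mouse, and the grey band spans the odorant receptor probesets from the lowest 5th to the highest 95th percentile over the arrays. For C1qa, C1qb and C1qc the symbols of mouse 5 lie far to the left of those of mice 2 and 4, while filled and open symbols of a mouse lie close together.

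The 3 chains of C1q showed the widest spread. Their genes lie next to each other on chromosome 4 in the order C1qa, C1qc, C1qb, with 0 protein-coding genes between them. The RefSeq promoter windows of C1qb and C1qc, from 250 bases before to 50 after the transcription start (GRCm38.p6, minus strand, chr4:136886151-136886450 and chr4:136892865-136893164), are shown because these neighbours moved together across the mice. Capitals mark the letters ACTTCCT, the reverse complement of AGGAAGT, a core bound by ETS factors such as the myeloid factor PU.1. This motif was chosen after both windows had been read.
C1qb: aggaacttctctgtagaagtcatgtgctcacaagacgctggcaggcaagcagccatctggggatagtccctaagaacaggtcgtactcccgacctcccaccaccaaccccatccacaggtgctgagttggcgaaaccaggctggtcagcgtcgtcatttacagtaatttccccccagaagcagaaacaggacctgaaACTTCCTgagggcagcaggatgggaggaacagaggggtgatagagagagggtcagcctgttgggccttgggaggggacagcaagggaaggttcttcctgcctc
C1qc: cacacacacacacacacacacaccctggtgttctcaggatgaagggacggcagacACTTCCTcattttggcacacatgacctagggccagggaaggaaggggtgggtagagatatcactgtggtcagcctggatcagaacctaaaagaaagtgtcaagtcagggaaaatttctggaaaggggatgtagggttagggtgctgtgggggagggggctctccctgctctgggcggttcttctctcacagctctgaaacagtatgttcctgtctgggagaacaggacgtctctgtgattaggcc
The marked letters begin 53 bases before the start of C1qb and 195 before that of C1qc. On either strand AGGAAGT occurs in 5 of 29 windows of the members (17.2%), those of C1qb, C1qc, Masp2, Fcna and Fcnb, and in 9.35% of 32851 mouse windows of the same length. Since the motif was chosen with the windows of C1qb and C1qc in view, the member share is no test against that of all windows. A match describes the letters only and was not tested for binding.

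C1qa read 10.04, 10.33 and 6.59 in the C5a cultures of mice 2, 4 and 5, against 10.50, 10.71 and 6.40 in their unstimulated cultures. C1qb read 10.89, 11.09 and 6.97 with C5a, against 11.34, 11.66 and 6.53 without. C1qc read 9.86, 10.17 and 6.02 with C5a, against 10.47, 10.61 and 5.73 without. All 3 chains were thus high in mice 2 and 4 and low in mouse 5 under both conditions, and the groups overlapped. The means of the highest and lowest mouse differed by 4.03 for C1qa, 4.63 for C1qb and 4.52 for C1qc, with adjusted p of 0.00411, 0.00762 and 0.00593 for the difference between mice.

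The change of the C1q chains with C5a took opposite signs in the mice. C1qa was lower with C5a by 0.46 in mouse 2 and 0.38 in mouse 4 and higher by 0.19 in mouse 5. For C1qb the changes were -0.45, -0.57 and 0.44 in mice 2, 4 and 5, and for C1qc they were -0.61, -0.44 and 0.29. The mean changes of -0.22 (SE 0.15) for C1qa, -0.19 (SE 0.22) for C1qb and -0.25 (SE 0.19) for C1qc did not pass the test (limma, adjusted p = 0.593, 0.788 and 0.648). Without mouse 5 the mean changes were -0.42, -0.51 and -0.52, past the unadjusted threshold of 0.05 for all 3 chains, with adjusted p of 0.298, 0.278 and 0.278. The macrophage markers moved alongside, with a median change of -0.34 in mouse 2, -0.48 in mouse 4 and 0.14 in mouse 5, and 10 of 16 markers were lower in mice 2 and 4 and higher in mouse 5. Of the members, 8 showed these signs: C1qa, C1qb, C1qc, C7, Serping1, C4bp, Clu and Vsig4. The means of C7 and C4bp were not above the 95th percentile of the odorant receptors. In mouse 5 the values of Vsig4, 4.46 with C5a and 4.33 without, were below it too. The share of all genes with these signs was not counted. The part of the macrophage markers in these values was not tested.

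The proteases of the C1 complex and the related C1rl followed another order of mice. C1ra and C1s1 encode mouse C1r and C1s, and C1rl encodes a C1r-like protease. These genes are neighbours on chromosome 6, with 0 protein-coding genes between C1rl and C1ra or between C1ra and C1s1. All 3 were highest in mouse 2, intermediate in mouse 5 and lowest in mouse 4, with ranges of 1.25 for C1ra, 1.30 for C1rl and 1.25 for C1s1 (adjusted p = 0.0483, 0.0186 and 0.013). C1s1 read 11.03, 9.80 and 10.61 with C5a, against 11.17, 9.90 and 10.69 without, so that the difference between mouse 2 and mouse 4 far exceeded its mean change of -0.11 (SE 0.07, adjusted p = 0.551). C1ra has a near-identical copy, C1rb, and C1s1 has C1s2, and whether the probes tell such copies apart was not tested.

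C1rl was lower with C5a in every mouse. It read 8.75, 7.51 and 7.74 in the C5a cultures of mice 2, 4 and 5, against 9.42, 8.05 and 8.09 in the unstimulated cultures. Each C5a culture lay below its own control, but the C5a culture of mouse 2 lay above the controls of mice 4 and 5, so the groups overlapped. The fold change was 0.698, a log2 change of -0.52 (SE 0.09, 95% confidence interval -0.75 to -0.28, limma adjusted p = 0.112). Without the pairing by mouse it missed the unadjusted threshold (adjusted p = 0.829), and with only probesets naming 1 gene it passed after adjustment (adjusted p = 0.0459).

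Of the substrates of C1s, C4b and C2 differed between mice and did not pass the test of C5a. C4b read 8.72, 6.44 and 7.72 with C5a, against 8.55, 6.81 and 7.44 without, which is again high in mouse 2 and low in mouse 4. Its range between mice was 2.01 (adjusted p = 0.0265), and its change was 0.03 (SE 0.15, adjusted p = 0.964). The near-identical gene C4a kept that order of mice, with a range of 0.90 (adjusted p = 0.0441), and whether the probes tell the 2 genes apart was not tested. C2 was highest in mouse 5 and lowest in mouse 4, with a range of 0.80 (adjusted p = 0.0365) and a change of 0.02 (SE 0.07, adjusted p = 0.959).

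The lectin pathway held no member that passed either test. Colec12, a scavenger receptor with a collagen-like and a lectin domain, read 11.68, 11.25 and 11.68 with C5a, against 12.05, 11.36 and 11.77 without. It was lower in all 3 mice, but the groups overlapped and the change of -0.19 (SE 0.09) gave an adjusted p of 0.401. Ficolin A, Fcna, was likewise lower in all 3 mice, by 0.31, 0.20 and 0.06, with an adjusted p of 0.362. The protease Masp1 read 10.29 to 10.40 with C5a and 10.28 to 10.56 without. Masp2 and Mbl1 had means of 5.24 and 4.34, not above the 95th percentile of the odorant receptor probesets, and Mbl2 at 5.35, Fcnb at 5.56 and Colec11 at 6.23 were close to it. The smallest adjusted p of a lectin pathway member for a difference between mice was 0.142.

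Factor B and properdin, the measured members of the alternative pathway, were unlike in their order of mice. Cfb, which carries the protease of the alternative convertase and lies next to C2 on chromosome 17, read 10.68, 8.71 and 9.70 with C5a, against 10.68, 8.93 and 9.65 without. Mouse 2 was high and mouse 4 low, with a range of 1.86 (adjusted p = 0.00926), and the change was -0.05 (SE 0.09, adjusted p = 0.862). Cfp, which encodes properdin and is made mainly by leukocytes, read 9.03, 8.89 and 6.25 with C5a, against 9.55, 9.20 and 6.32 without. Mice 2 and 4 were high and mouse 5 low, as for C1q, with a range of 3.01 (adjusted p = 0.00408).

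Cfp was lower with C5a in every mouse, by 0.53 in mouse 2, 0.31 in mouse 4 and 0.07 in mouse 5, and the groups overlapped. The fold change was 0.812, a log2 change of -0.30 (SE 0.11, 95% confidence interval -0.58 to -0.02, limma adjusted p = 0.28). It missed the unadjusted threshold when the pairing was dropped (adjusted p = 0.977). The call did not hold without mouse 2, where the change was -0.19, or without mouse 4, where it was -0.30 on fewer arrays. Beside it, 5 of 16 macrophage markers (31.2%, against 11.9% of all genes) were lower with C5a at an unadjusted p under 0.05. They were Adgre1, Mrc1, Ptprc, Mpeg1 and Ctss, and their part in the change of Cfp was not tested.

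Transcripts of the terminal pathway were near the level of the odorant receptors. Hc encodes C5, the precursor of C5a, and read 4.88, 4.91 and 4.95 with C5a, against 4.87, 4.73 and 4.91 without. The change was 0.08 (SE 0.07, adjusted p = 0.708), and the groups overlapped. C8g, which encodes the gamma chain of C8, read 5.59, 5.37 and 5.46 with C5a, against 5.64, 5.50 and 5.78 without, a change of -0.17 (SE 0.08, adjusted p = 0.436). It was the only one of the 7 measured terminal members with a mean above 5.33. C6, C7, C8a, C8b and C9, which build the membrane attack complex, had means of 4.45 to 5.13, and no terminal member differed between mice, with adjusted p of 0.601 or more.

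**Figure D2:**
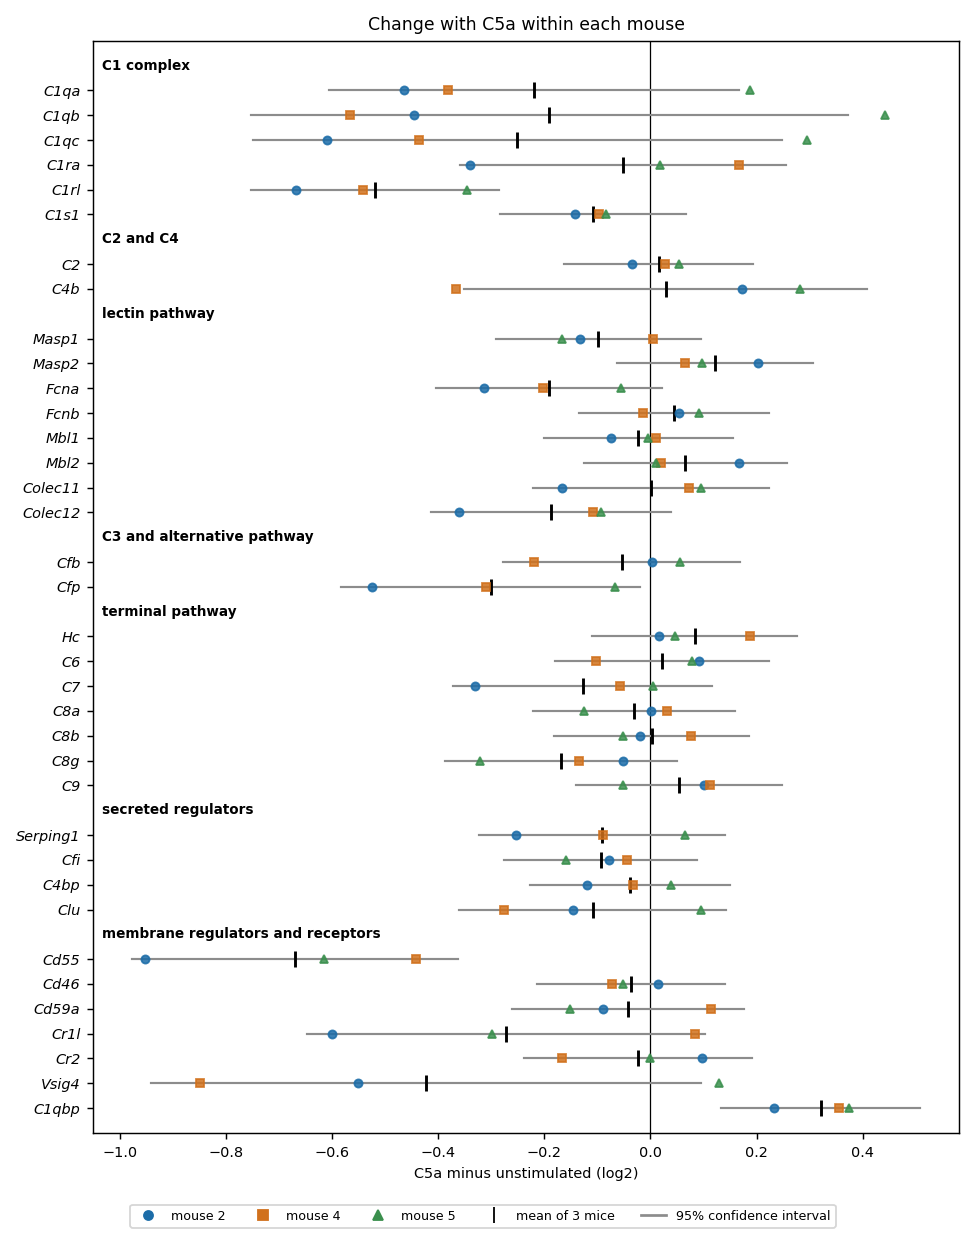
Change with C5a, given as the log2 difference C5a minus unstimulated (horizontal axis), in each mouse (coloured symbols), with the mean of the 3 mice (black tick) and the 95% confidence interval of the paired limma fit (grey line) for the 36 members. The intervals of C1rl, Cfp and Cd55 lie below 0 and that of C1qbp lies above 0, while the symbols of the C1q chains fall on both sides of 0.

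Among the secreted regulators, Serping1 and Clu were well above the odorant receptors and Cfi and C4bp were not. Serping1 encodes the C1 inhibitor, which blocks C1r, C1s and the MASPs, and read 11.48, 11.94 and 12.55 with C5a, against 11.73, 12.03 and 12.48 without. It was highest in mouse 5 and lowest in mouse 2, a range of 0.91 that did not pass the test (adjusted p = 0.0533), and its change was -0.09 (SE 0.09, adjusted p = 0.736). Clu, which encodes clusterin, an inhibitor of membrane attack complex insertion, read 12.87, 10.70 and 11.76 with C5a, against 13.01, 10.98 and 11.67 without. Mouse 2 was high and mouse 4 low by a range of 2.10 (adjusted p = 0.00919), the order also seen for C1ra, C1rl, C1s1, C4b and Cfb. Its change was -0.11 (SE 0.10, adjusted p = 0.705). C4bp, a cofactor in C4b breakdown, had a mean of 5.17 and differed between mice by 0.79 (adjusted p = 0.0427). Cfi, the protease that cleaves C3b and C4b, read 5.00 to 5.02 with C5a and 5.07 to 5.16 without. Its groups did not overlap, but its mean was not above the odorant receptor level and its change did not pass the test (limma adjusted p = 0.636).

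The membrane regulators protect cells from their own complement. Cd55, the decay-accelerating factor that dissociates C3 and C5 convertases, was lower with C5a in all 3 mice. It read 5.04, 6.02 and 6.28 in the C5a cultures of mice 2, 4 and 5, against 5.99, 6.46 and 6.89 in the unstimulated cultures. Every C5a culture lay below its own control by 0.95, 0.44 and 0.62, and the groups overlapped, since the C5a cultures of mice 4 and 5 lay above the unstimulated culture of mouse 2. The value of 5.04 in mouse 2 was below the 95th percentile of the odorant receptors on that array, 5.46. The fold change was 0.628, a log2 change of -0.67 (SE 0.12, 95% confidence interval -0.98 to -0.36, limma adjusted p = 0.114). Without the pairing it missed the unadjusted threshold (adjusted p = 0.641), and without mouse 2 the change of -0.53 was called but was under 1.5-fold. With only probesets naming 1 gene, Cd55 passed after adjustment (adjusted p = 0.0459). The near-identical gene Cd55b read 4.26 to 4.40 over all arrays.

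No other membrane regulator passed the test of C5a. Cd59a, which blocks the membrane attack complex, read 10.11, 9.34 and 8.08 with C5a, against 10.20, 9.23 and 8.23 without. It was high in mouse 2 and low in mouse 5, a range of 2.00 (adjusted p = 0.00768), and its change was -0.04 (SE 0.08, adjusted p = 0.896). Cr1l, which encodes Crry, a rodent inhibitor of C3 convertases, read 7.13, 7.36 and 6.93 with C5a, against 7.73, 7.28 and 7.23 without. Crry was lower with C5a in mice 2 and 5 and higher in mouse 4, with a change of -0.27 (SE 0.14, adjusted p = 0.47). Cd46, a cofactor of factor I that mice are known to express mainly in testis, stayed between 3.91 and 4.07.

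The receptors for complement fragments and C1q differed in pattern. Vsig4, a macrophage receptor for C3b and iC3b, read 7.32, 5.11 and 4.46 with C5a, against 7.87, 5.96 and 4.33 without. It was high in mouse 2, intermediate in mouse 4 and low in mouse 5, with a range of 3.20 (adjusted p = 0.0179), and its change of -0.42 (SE 0.20) did not pass the test (adjusted p = 0.408). The values of Vsig4 in mouse 5 and its C5a value in mouse 4 were low. They lay below the 95th percentiles of the odorant receptors on those arrays, 5.30 to 5.39. Cr2, the complement receptor of B cells and follicular dendritic cells, had a mean of 4.11. C1qbp, a protein first described as a receptor for the globular heads of C1q and located mainly in mitochondria, read 9.76, 9.68 and 9.62 with C5a, against 9.52, 9.32 and 9.24 without. The lowest C5a culture lay above the highest unstimulated one. Groups without overlap were also seen for Cfi, and their share over all genes was not counted. The fold change was 1.25, a log2 change of 0.32 (SE 0.07, 95% confidence interval 0.13 to 0.51, limma adjusted p = 0.144), and the difference between mice did not pass the test (adjusted p = 0.52). C1qbp was the only member called also by limma without the pairing, at the unadjusted threshold that 14% of all genes then passed (adjusted p = 0.28).

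**Figure D3:**
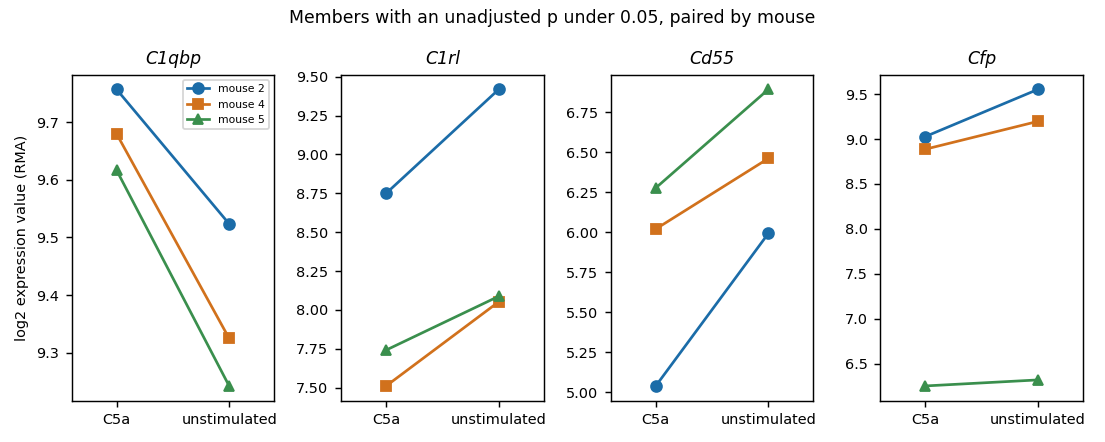
Log2 expression value (vertical axis, a separate scale in each panel) of the 4 members with an unadjusted p under 0.05, in the C5a (left) and unstimulated (right) culture of each mouse, joined by a line. C1qbp is higher with C5a in all 3 mice and its groups do not overlap, while C1rl, Cd55 and Cfp are lower with C5a in all 3 mice and their groups overlap.

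The 14 members that differed between mice fell into 4 orders. C1qa, C1qb and C1qc were highest in mouse 4 and lowest in mouse 5, which is the order of all 16 macrophage markers, and their ranges were 4.03 to 4.63. Cfp, Cd59a and Vsig4 were highest in mouse 2 and lowest in mouse 5, with ranges of 2.00 to 3.20. C1ra, C1rl, C1s1, C4b, Cfb and Clu, 6 members in all, were highest in mouse 2 and lowest in mouse 4, with ranges of 1.25 to 2.10. C2 and C4bp were highest in mouse 5 and lowest in mouse 4, with ranges of 0.79 to 0.80. A range above 1 was found in 13 members (36.1%), against 4.33% of all genes, and the median range was 0.42 for the members and 0.17 for all genes. At an adjusted p under 0.05, 12 of 16 macrophage markers differed between the mice (75%, against 3.71% of all genes). Of the osteoblast markers 6 of 9 did (66.7%). Of these 9 markers, 8 were highest in mouse 4 and 7 were lowest in mouse 5. The order of the C1q chains was thus not particular to the macrophage markers. The median range was 4.07 for the macrophage markers and 1.91 for the osteoblast markers. Among the osteoblast markers the widest range, 5.46, was that of Ibsp, a bone matrix protein. Ibsp read 11.26, 12.62 and 7.02 with C5a, against 11.75, 12.88 and 7.56 without. The part of any cell type in the orders was not tested.

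**Figure D4:**
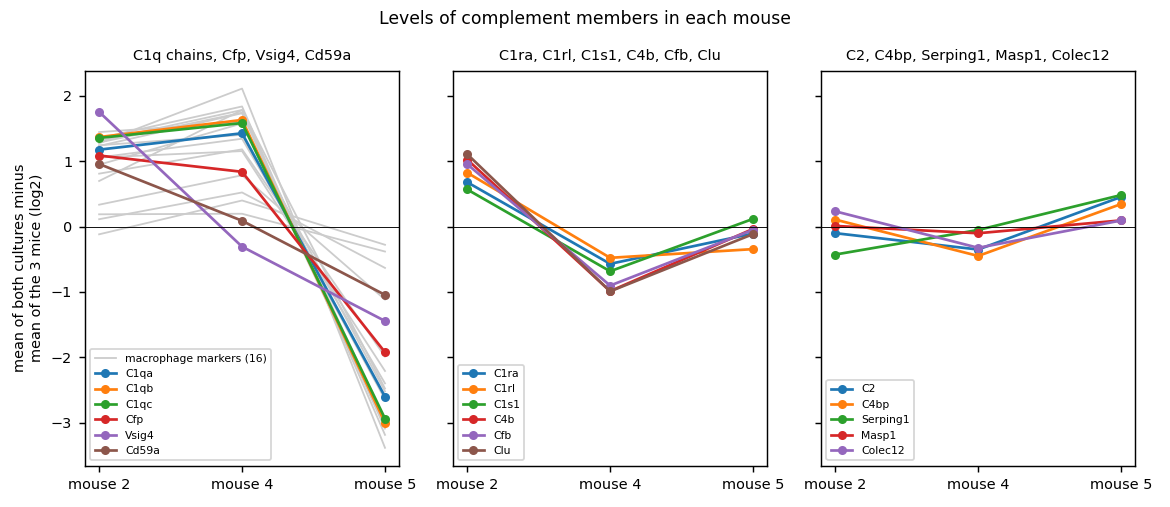
Mean of both cultures of a mouse minus the mean of the 3 mice (vertical axis, log2) for named members (coloured lines) and the 16 macrophage markers (grey lines). The C1q chains and the macrophage markers peak in mouse 4 and drop in mouse 5, the 6 members of the middle panel peak in mouse 2 and are lowest in mouse 4, and the members of the right panel vary by less than 1.

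Other genes tied to complement were read from the same fit. Of 29 such genes 24 were measured, 1 was higher with C5a (Thbd, 4.17%, against 8.26% of all genes) and 3 were lower (Itgb2, Cd93 and C3ar1, 12.5%, against 11.9%) at an unadjusted p under 0.05, shares below and near those of all genes. Between mice 8 differed (33.3%, against 3.71% of all genes). Thbd, which encodes thrombomodulin, read 9.25, 8.97 and 10.21 with C5a, against 8.07, 8.22 and 9.30 without, a change of 0.95 (SE 0.11, limma adjusted p = 0.0869). C3ar1, the receptor for C3a, read 9.70, 10.02 and 5.27 with C5a, against 10.38, 10.69 and 5.26 without, lower in mice 2 and 4 and level in mouse 5 (change -0.45, SE 0.16, adjusted p = 0.282). C5ar1, the receptor for C5a, read 8.84, 8.77 and 6.09 with C5a, against 9.11, 9.41 and 5.17 without. The C5a receptor was high in mice 2 and 4 and low in mouse 5, as C1q was, and its change of 0.01 (SE 0.31, adjusted p = 0.997) averaged opposite signs. C5ar2, the second C5a receptor, read 6.56 to 6.77 with C5a and 6.50 to 6.98 without.

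Of 14 transcription factors known to act on complement genes 12 were measured. At an unadjusted p under 0.05, 2 were higher with C5a (16.7%, against 8.26% of all genes), Cebpa by 0.26 and Nfkb2 by 0.29, and 4 were lower (33.3%, against 11.9%), all by at least 1.5-fold (2.21% of all genes). These were Stat2 and Irf9, partners in interferon signalling, with changes of -0.83 and -0.90, Irf1 with -0.64 and Cebpd with -1.11. None passed after adjustment (limma adjusted p of 0.0867 to 0.286 over these 6). The core of the interferon-stimulated response element, GAAA on both sides of any 2 bases, occurred in 3 of 29 member windows (10.3%), those of Colec11, Cd46 and Cd59a, and in 3.44% of all windows. The STAT motif TTCNNNGAA occurred in 5 windows (17.2%), those of C1ra, Masp2, Colec11, C7 and C8a, against 8.3% of all windows. The NF-kB forms, GGGAA and TTCC or GGGA and TTTCC with any 1 base between them, occurred in 0 member windows and in 0.661% of all windows. Both strands were searched, and 9 measured members, C1qa among them, had no window. The windows of C1rl, Cfp, Cd55 and C1qbp held none of these letters.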

How the data were processed

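Gene expression was measured in 3 C5a-stimulated and 3 unstimulated osteoblast cultures on Affymetrix whole-transcript arrays. The authors used Affymetrix Expression Console with RMA, the robust multiarray average, and deposited log2 expression values per probeset, which were used without further normalization or filter. Versions of these programs are not given in the sources used here. Array medians were 5.89 to 5.93, and the number of arrays limits the precision.

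All 35556 probesets were fitted with limma 3.58.1 in R 4.3.3 (lmFit and eBayes, treatment and mouse as terms, 2 residual degrees of freedom), with two-sided p-values and Benjamini-Hochberg adjustment. The mouse terms were tested by the moderated F-test. Genes were named by the platform annotation: 21789 probesets name 1 gene, 1621 several and 12146 none, and the probeset with the highest mean was taken per gene, 1 for each member. All 36 symbols matched RefSeq. The script was tested on simulated data.

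The study design states that the cells of each mouse were divided between the treatments, so the mouse number pairs the cultures. Deviations from the group means correlated at 0.495 to 0.684 within mice and at -0.446 to -0.035 between mice. Such deviations cancel over the mice of a group, so positive correlations within mice pull those between mice below them to negative values. The methods' unpaired comparison was run as an alternative. Values on every array are given for members with an unadjusted p under 0.05, for the member with the highest mean in each role and for a fixed list. The members, the lists and the tests were chosen with earlier results of these data known. Promoter windows are from RefSeq (GRCm38.p6), and 27 of 36 members matched.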

Additional observations from a re-analysis of the deposited data

How the results depend on the processing

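C1qbp kept its call and direction under all 12 alternatives, and C1rl and Cd55 under 10 each, being lost only in the 2 fits without the replicate block. Cfp lost its call in 7 of 12. Of these 12 alternatives, 1 was no test for the members. It selected by variability among several probesets of a gene, and each member had only 1. The calls of the members were therefore bound to stay the same in that alternative, and the tallies out of 12 include it. The members lower at an unadjusted p under 0.05 numbered 3 with the block, 0 without the block, and 1 by the methods' t-test, while the members at least 1.5-fold lower numbered 1, 0 and 0. The lower member of that t-test was not C1rl, Cd55 or Cfp. Leaving out each mouse in turn, which with the block is the same as leaving out either of its arrays, gave 2 to 7 lower members, 7 without mouse 5 (C1qa, C1qb, C1qc, C1rl, Cfp, Cd55 and Vsig4), and 0 to 3 of at least 1.5-fold, 0 without mouse 2 and 3 without mouse 5. The members that differed between mice numbered 1 to 11 in place of 14: 4 without mouse 2 (C1qa, C1qb, C1qc and Cfp), 11 without mouse 4 and 1 without mouse 5 (Clu), each on 2 mice only. With adjustment over probesets naming 1 gene only, 2 members, C1rl and Cd55, passed (limma adjusted p = 0.0459 each), as against 0, with the spread and the adjustment then taken from fewer probesets. Among the 18 members with values given on every array, leaving out a mouse turned the sign of 3, called in none of these fits: C4b gave -0.10 to 0.23 (-0.043 without mouse 2), Cfb -0.11 to 0.029 (above 0 without mouse 4) and Cd59a -0.12 to 0.012 (above 0 without mouse 5). The cause of the other shifts was not tested, and the matching shares of all genes in these fits were not counted. At the unadjusted threshold C1s1 passed only in the paired fit without moderation, and Cr1l only without mouse 4 (-0.45). The means of 12 members were not above the 95th percentile of the odorant receptors.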
